A study of Mus musculus with 2 samples.

Results

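Neighbouring protein-coding genes of the mouse often begin or end within a short distance of each other, and a chromatin peak in reach of 2 such ends can be counted for both. This account is about the peaks of H3R17me2a, the asymmetric dimethyl mark on arginine 17 of histone H3, that lie at such paired ends in the heart. A peak was taken where chromatin immunoprecipitation followed by sequencing (ChIP-seq) piled up above background in both deposited peak lists, on chromosomes 1 to 19 and under 2000 bp wide, with its midpoint within 1000 bp of an end of one protein-coding gene and within 1000 bp of an end of a second. The peaks were thus chosen by their presence in both lists, their width and their position, and those values are given below as description. The rule found 1280 peaks of 20226 shared peaks (6.33%) and of all shared peaks at a gene end 17.3%. They lay at 1293 gene pairs and touched 2411 genes, 11.7% of the 20665 protein-coding genes on these chromosomes.

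Both samples form 1 group, hearts of wild-type mice at 21 days after birth, with no other genotype, treatment or control analysed here. The label for the sample source names primary cardiac fibroblasts, the tissue label names heart, the protocol describes homogenised frozen cardiac tissue, and the series text calls the hearts neonatal. Of 14 cardiomyocyte markers, 13 had a shared peak at a gene end, against 0 of 10 fibroblast, 1 of 10 endothelial, 1 of 10 immune and 2 of 10 mural markers. Des, 1 of the 2 mural genes, is also a cardiomyocyte gene. The marked genes thus went against the fibroblast name, and the material is called heart here. The sample titles name carm1, yet all animals are labelled wild type, and nothing says whether the samples came from separate animals. Both lists appear to rest on the same reads: 42.3% of overlapping peaks had their summit on the same base, and the ChIP reads recovered at the summits differed by a median of 1 read where independent draws of that depth differ by 5. The samples were counted as 1, so a value given for list 1 and list 2 shows 2 peak calls and no biological spread. Peaks and gene pairs are not replicates of the mark, so counts are given with 95% exact binomial intervals, which cover counting error only, and no p-value is given.

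H3R17me2a is written by Carm1, an arginine methyltransferase that is recruited to promoters and enhancers as a coactivator of transcription. Genes that are arranged head to head start on opposite strands from a common stretch of DNA, a bidirectional promoter, and such promoters are known to be rich in CpG dinucleotides and to serve many housekeeping genes of metabolism, DNA repair and protein synthesis. In a tandem pair the tail of one gene precedes the start of the next on the same strand, and in a tail-to-tail pair transcription of both genes ends towards the other. The rule did not use strand, so the arrangement of each pair could be compared between pairs with and without a peak.

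The promoters of the 3 head-to-head pairs with the best joint rank by fold enrichment in the 2 lists, and of Paics and Ppat, a classic bidirectional pair of purine synthesis, are shown because the arrangement of starts is the main feature of these peaks. Each sequence is from RefSeq (GRCm38.p6, the primary chromosomes of mm10), reads 5′ to 3′ along the gene and runs from 250 bases before to 50 after an annotated start. Capitals mark matches on either strand to 9 short motifs, those of SP/KLF, ETS, NRF1, NFY, YY1, CREB/ATF, E-box and ERR factors and the TATA box, whose letters are spelled out with their shares below. Matches may overlap each other, as do the ETS matches on opposite strands in the Wdr46 and Cyb561a3 promoters.
Pfdn6 (chr17:33940294-33940593, minus strand): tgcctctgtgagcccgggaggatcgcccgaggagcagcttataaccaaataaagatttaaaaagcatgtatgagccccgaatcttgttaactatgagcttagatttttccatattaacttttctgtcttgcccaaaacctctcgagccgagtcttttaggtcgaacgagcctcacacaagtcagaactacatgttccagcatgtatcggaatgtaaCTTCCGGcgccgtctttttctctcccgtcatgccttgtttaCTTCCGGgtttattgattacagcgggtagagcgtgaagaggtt
Wdr46 (chr17:33940473-33940772, plus strand): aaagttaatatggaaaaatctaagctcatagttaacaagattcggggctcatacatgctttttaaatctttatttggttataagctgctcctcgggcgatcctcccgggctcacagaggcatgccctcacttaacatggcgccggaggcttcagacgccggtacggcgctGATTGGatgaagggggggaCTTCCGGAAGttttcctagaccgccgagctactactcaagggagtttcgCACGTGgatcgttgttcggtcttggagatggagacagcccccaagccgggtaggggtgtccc
Pmm2 (chr16:8637457-8637756, plus strand): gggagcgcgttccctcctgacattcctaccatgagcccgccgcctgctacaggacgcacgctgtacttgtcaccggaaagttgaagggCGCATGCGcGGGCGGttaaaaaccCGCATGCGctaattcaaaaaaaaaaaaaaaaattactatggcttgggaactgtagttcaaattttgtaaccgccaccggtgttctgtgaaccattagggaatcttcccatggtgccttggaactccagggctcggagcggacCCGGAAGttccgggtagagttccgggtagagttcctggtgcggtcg
Tmem186 (chr16:8637662-8637961, minus strand): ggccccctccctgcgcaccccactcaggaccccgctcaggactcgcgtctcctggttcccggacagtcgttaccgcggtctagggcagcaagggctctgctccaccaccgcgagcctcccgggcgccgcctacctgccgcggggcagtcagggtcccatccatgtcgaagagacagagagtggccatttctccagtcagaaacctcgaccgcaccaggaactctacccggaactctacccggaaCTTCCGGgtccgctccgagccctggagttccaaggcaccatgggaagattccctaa
Cyb561a3 (chr19:10576907-10577206, plus strand): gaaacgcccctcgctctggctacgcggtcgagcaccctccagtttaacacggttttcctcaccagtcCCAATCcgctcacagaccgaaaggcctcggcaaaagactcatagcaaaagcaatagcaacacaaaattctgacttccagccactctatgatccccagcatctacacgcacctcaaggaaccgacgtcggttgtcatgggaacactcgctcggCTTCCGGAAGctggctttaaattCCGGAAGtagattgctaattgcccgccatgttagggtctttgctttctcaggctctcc
Tmem138 (chr19:10577337-10577636, minus strand): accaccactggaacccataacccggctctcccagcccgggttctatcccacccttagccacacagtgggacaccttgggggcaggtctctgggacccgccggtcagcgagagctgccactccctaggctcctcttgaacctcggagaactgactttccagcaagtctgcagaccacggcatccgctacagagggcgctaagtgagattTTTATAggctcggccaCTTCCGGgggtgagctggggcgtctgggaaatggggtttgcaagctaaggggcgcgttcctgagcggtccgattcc
Paics (chr5:76951052-76951351, plus strand): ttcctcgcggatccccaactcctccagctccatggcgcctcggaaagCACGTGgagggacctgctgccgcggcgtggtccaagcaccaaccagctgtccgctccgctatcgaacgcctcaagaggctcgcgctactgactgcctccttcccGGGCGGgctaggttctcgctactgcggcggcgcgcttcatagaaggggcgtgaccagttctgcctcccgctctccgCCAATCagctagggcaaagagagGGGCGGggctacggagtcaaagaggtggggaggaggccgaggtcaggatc
Ppat (chr5:76951529-76951828, minus strand): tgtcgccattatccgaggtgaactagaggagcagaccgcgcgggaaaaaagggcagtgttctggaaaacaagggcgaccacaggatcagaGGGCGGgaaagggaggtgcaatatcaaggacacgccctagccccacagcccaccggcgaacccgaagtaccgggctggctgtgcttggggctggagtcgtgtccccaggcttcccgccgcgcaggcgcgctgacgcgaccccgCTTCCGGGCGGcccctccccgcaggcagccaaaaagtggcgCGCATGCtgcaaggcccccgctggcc

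An ETS match stood in 7 of these 8 promoters and was not among the letters of the Paics window. Over all promoters of marked head-to-head genes it stood in 28.7%, and over all promoters in 12.3%. The printed pairs were chosen and are few, so their count is no share. The windows of Pfdn6 and Wdr46 shared 121 bases and those of Pmm2 and Tmem186 shared 95, while those of the other 2 pairs did not overlap. A match is a description of the letters and not evidence of a bound factor.

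Head-to-head pairs carried the mark far more often than pairs that meet at their tails. Of the 5055 pairs of ends of different genes that lay at most 2000 bp apart, 1329 (26.3%; interval 25.1 to 27.5%) held a member peak. Among pairs whose strands are known, 703 of 992 head-to-head pairs held one (70.9%; 67.9 to 73.7%), against 185 of 900 tandem pairs (20.6%; 18 to 23.3%) and 31 of 1034 tail-to-tail pairs (3.0%; 2.05 to 4.23%). Starts close together on the same strand were marked in 30 of 66 pairs (45.5%; 33.1 to 58.2%), a start beside a tail on opposite strands in 44 of 209 (21.1%; 15.7 to 27.2%), and tails close together on the same strand in 7 of 95 (7.37%; 3.01 to 14.6%). The head-to-head interval did not overlap that of any other arrangement. The shares changed little with whether the gene spans overlapped: 72.0% of head-to-head pairs with separate spans and 69.0% with overlapping spans held a peak. Keeping only peaks with a fold above the median of their list left 383 members and lowered the head-to-head share to 20.7% and the tail-to-tail share to 1.35%. The head-to-head share stayed above the tail-to-tail share in each of the 10 alternative settings. There the tail-to-tail share ran between 0.566% for a 500 bp window and 6.87% for a 2000 bp window. The other arrangements were not counted under these settings.

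**Figure D1:**
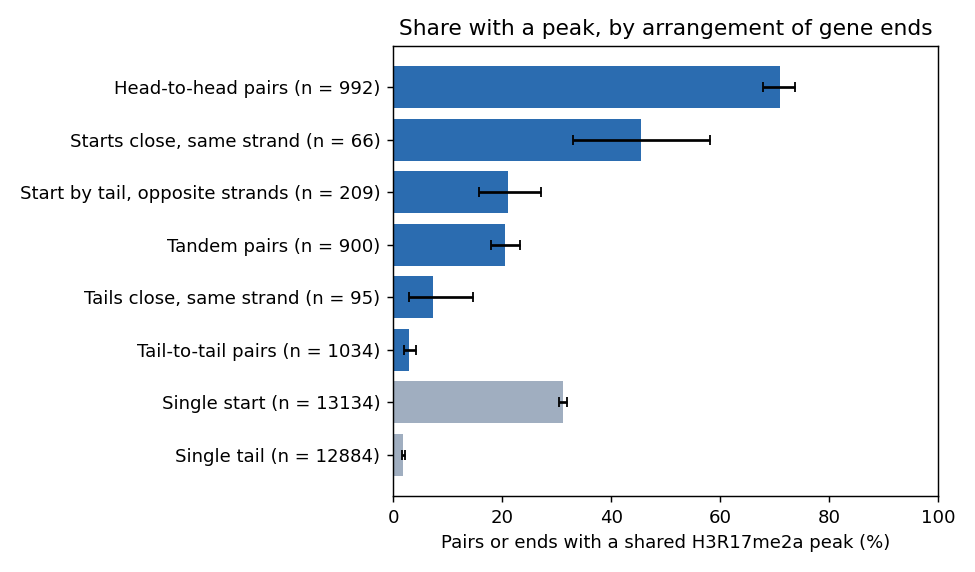
Share of neighbouring gene-end pairs with a member peak by arrangement (blue) and of ends with no neighbouring end within 2000 bp that have a shared peak (grey), in percent; error bars are 95% exact binomial intervals. Head-to-head pairs reached 70.9%, tail-to-tail pairs 3.0%, single starts 31.2% and single tails 1.87%.

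Ends with no other gene's end within 2000 bp gave the level for genes that stand alone. A shared peak lay within 1000 bp of 4096 of 13134 single starts (31.2%; 30.4 to 32.0%) and of 241 of 12884 single tails (1.87%; 1.64 to 2.12%). The head-to-head share thus stood above that of single starts. For a pair the midpoint had to lie in reach of 2 starts and so in a shorter stretch. A pair also has 2 starts at which a peak can form, and the part of either in the difference was not tested. Shares by the CpG content of the promoters are given below. The tail-to-tail interval (2.05 to 4.23%) met that of single tails. Strand was known for 16457 of the genes (79.6%), those with an entry in the promoter table, and 1759 end pairs with at least 1 gene of unknown strand held a peak in 329 (18.7%). Of these, 458 pairs are on chromosome 18, for which no strand was used here.

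Of the 1280 peaks, 970 (75.8%) had a known arrangement, and 729 of those (75.2%) lay at a head-to-head pair. Tandem pairs accounted for 182 peaks, tail-to-tail pairs for 25, starts close together on 1 strand for 18, a start beside a tail on opposite strands for 15 and tails on 1 strand for 1. A peak in reach of several arrangements was counted under the first of these, and 47 peaks had more than 1. Ends of 3 genes were in reach of 23 peaks, and 1257 had 2.

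The share of marked head-to-head pairs was high while the starts were close. Among pairs with separate spans it was 81.2% (229 of 282) at distances up to 100 bp, 77.6% (97 of 125) at over 100 and up to 200 bp and 83.1% (98 of 118) at over 200 and up to 500 bp, with intervals that overlapped. It was 57.1% (24 of 42; 41.0 to 72.3%) at over 500 and up to 1000 bp and 13.3% (4 of 30) at over 1000 and up to 1500 bp. Beyond that none of 31 pairs had a member (interval up to 11.2%). The stretch in reach of both ends shrinks as the distance grows, to 0 bp at 2000 bp, so part of the fall follows from the rule. In the same bins tandem pairs ran from 31.0% (18 of 58) at up to 100 bp through 44.7%, 40.1% and 34.0% to 3.93% at over 1000 and up to 1500 bp, and tail-to-tail pairs never exceeded 5.0% (4 of 80). At every distance up to 1000 bp the head-to-head and tail-to-tail intervals stayed apart.

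**Figure D2:**
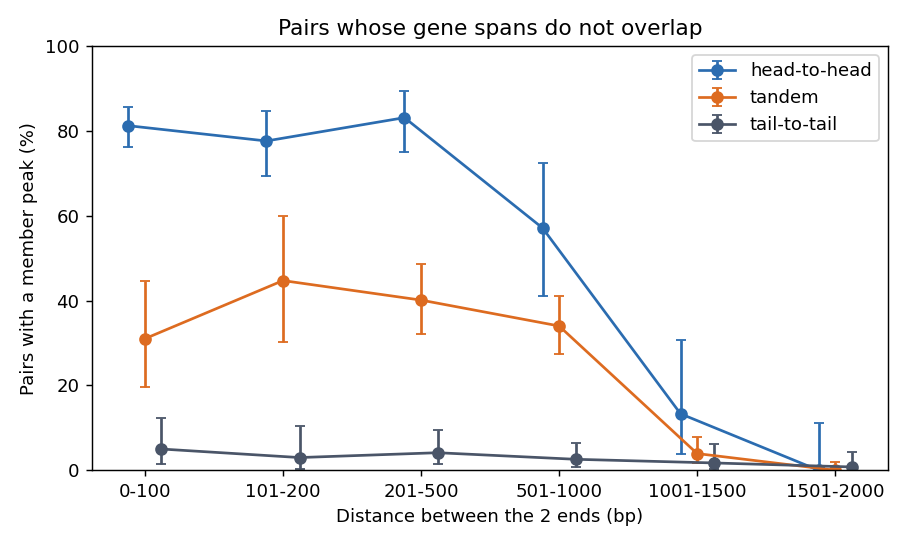
Share of pairs with a member peak (percent, y axis) by the distance between their ends (bp, x axis) for pairs whose spans do not overlap; points are shares and bars 95% exact binomial intervals. Head-to-head pairs stay between 77.6% and 83.1% up to 500 bp, and tail-to-tail pairs stay at or under 5.0%.

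The peaks sat at starts, also where a tail was in equal reach. In tandem pairs with separate spans, 158 of 176 combinations of a peak and a pair (89.8%; 84.3 to 93.8%) had the midpoint nearer the start of the downstream gene than the tail of the upstream gene, with median distances of 158 bp to the start and 555 bp to the tail. The midpoint lay a median of 85 bp into the downstream gene, between -61.8 and 206 bp in the middle 50%, and 117 of 176 (66.5%) were past the start. At single starts the median was 125 bp into the gene, with 75% of 4313 past the start. Where 200 to 500 bp separated tail and start, 53 of 62 were nearer the start (85.5%; 74.2 to 93.1%), and at 500 to 1000 bp 64 of 67 (95.5%; 87.5 to 99.1%). At over 1000 bp 5 of 7 were nearer the start (71.4%; 29.0 to 96.3%). There the midpoint lay a median of 396 bp before the start and 0 of 7 were past it, as the rule requires at that distance.

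Phykpl is an example of a tandem pair in which the peak sits on the start. Phykpl, an enzyme that breaks down phosphohydroxylysine (mm10 chromosome 11, 51584654 to 51603264), begins 729 bp after the end of the collagen gene Col23a1 on the same strand. The peak (51584013 to 51585234) had its midpoint 31 bp from the Phykpl start and 698 bp from the Col23a1 tail, with folds of 14.2 and 9.06 in the lists, both from 57 summit reads. At Cactin, a gene of pre-mRNA splicing (chromosome 10, 81321103 to 81326251), the midpoint was 273 bp from its start and 856 bp from the tail of the lipid kinase gene Pip5k1c, with folds of 12.3 and 9.47 from 76 and 75 reads.

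In head-to-head pairs with separate spans the midpoint was a median of 110 bp from the centre between both starts (middle 50%, 55 to 211 bp; 472 combinations). In tandem pairs with separate spans it was 347 bp, with a wider median distance between the ends of marked pairs, 454 bp against 99 bp. Starts up to 100 bp apart leave little room, and 213 of 235 midpoints there (90.6%) fell inside a gene. With 200 to 500 bp between the starts 31 of 103 (30.1%) did, and the others lay between the starts. The median fold over these distances was 3.91 up to 100 bp, 4.19 up to 200 bp, 4.0 up to 500 bp and 4.11 beyond in list 1. The median width was 535, 603, 574 and 598 bp in the same order.

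**Figure D3:**
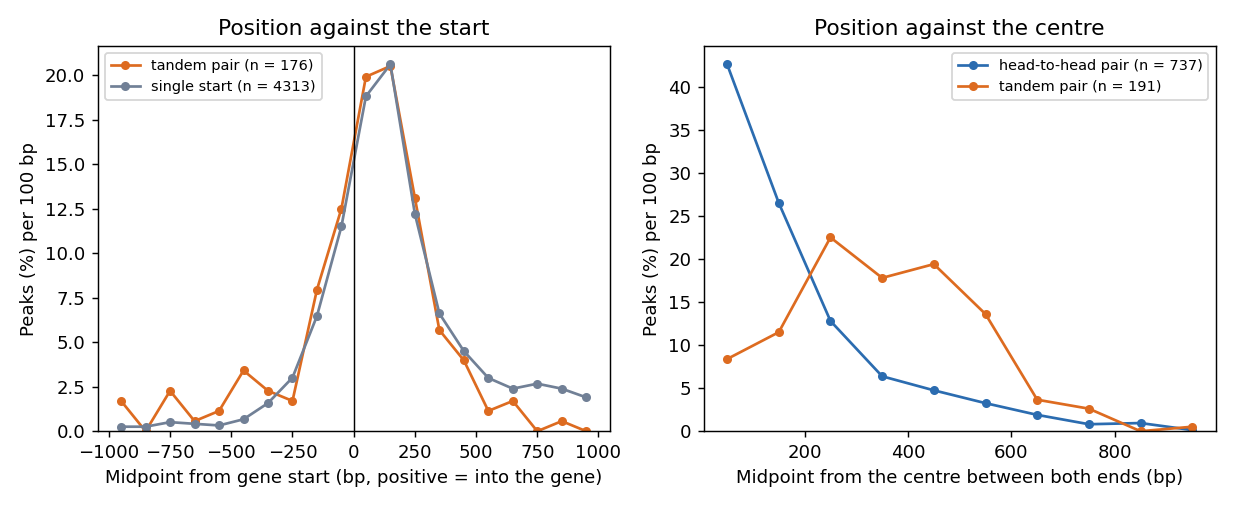
Left, position of peak midpoints against the gene start (bp, positive into the gene) at tandem pairs with separate spans and at single starts; right, distance of midpoints from the centre between both ends (bp) at head-to-head and tandem pairs; the y axes give the percent of peaks per 100 bp. Tandem midpoints centre just past the start, as single starts do, and 42.6% of head-to-head midpoints lie within 100 bp of the centre.

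At 669 of the 703 marked head-to-head pairs there was 1 member peak, and at 34 (4.84%) there were 2. In 28 of those 34 pairs the midpoints lay on opposite sides of the centre. Over all 34 the midpoints were a median of 736 bp from each other (450 to 1476 bp). Pcgf2, a Polycomb group gene, and Psmb3, a proteasome subunit gene, start 1000 bp apart and show such a doublet. Its list 1 peaks on chromosome 11 (97702286 to 97702732 and 97703030 to 97703636) had folds of 10.1 and 6.40 from 32 and 95 reads. List 2 joined them into 1 peak (97702286 to 97703718) with a fold of 7.31.

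The member peaks had more reads and a lower fold than shared peaks as a whole. Their summits held a median of 60 reads in list 1 (middle 50%, 32 to 109) and 64 in list 2, against 26 over all 20226 shared peaks and 48 at shared peaks at the end of 1 gene in list 1. The authors' fold at the members had medians of 4.10 and 3.86 in the lists, against 4.98 and 4.19 over all shared peaks and 3.95 and 3.65 at 1 gene end. The background that the fold and p-value imply at the summit had a median of 13.0 reads at the members, 11.0 at shared peaks at 1 gene end, 12 at those at single starts, 4.0 over all shared peaks and 2.17 away from gene ends. In fold and background the members were thus close to other peaks at gene ends. Widths were similar: 537 bp at the members, 466 bp over all shared peaks and 492 bp at 1 gene end. The lists gave 563 of the members (44.0%) the same summit base, and 1255 (98.0%) met the position rule from the list 2 peak as well. Spearman's rho of fold between lists was 0.524 over the 1280 peaks, a description only, since both lists appear to rest on the same reads.

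The peaks at tails had fewer reads. The 25 tail-to-tail peaks had a median of 14 summit reads over an implied background of 1.67 reads in list 1, with a median fold of 5.43. The 729 head-to-head peaks had 67 reads over 14.0 with a fold of 4.0, and the 182 tandem peaks 46 reads over 10 with a fold of 4.11. The interquartile ranges of the reads, 13 to 22 at tails and 37 to 113 head to head, did not overlap. Shared peaks at single tails were similar, with a median of 20 reads over 3.0 and a fold of 5.09 in list 1. Shared peaks at no gene end had 19 reads over 2.17 and a fold of 5.47. Few reads, a low background and a higher fold were thus not particular to tail-to-tail pairs. A peak that also had the start of a gene of known strand in reach was counted under another arrangement. That counting left 1 of the 25 tail-to-tail peaks, at Pcif1 and Zfp335, with a start of the promoter table within 1000 bp (4.0%). Among tail-to-tail pairs without a member, 34 of 1003 (3.39%) had one that close to their centre. These pairs were not sorted in that way, so the 2 shares cannot be compared.

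The tail-to-tail peak with the highest list 1 fold lay where Sqstm1, the autophagy receptor p62, meets Mrnip (chromosome 11, 50200547 to 50201001), with folds of 10.2 and 6.91 from 24 reads in each list. A further peak of list 1 in the same pair (50199200 to 50199945) had a fold of 6.22 from 14 reads, and list 2 joined both. The other tail-to-tail peaks below were named after their values were seen, because their genes are known in muscle or mitochondria. The peak at the tails of the citrate synthase gene Cs and Coq10a, a coenzyme Q binding protein gene, had folds of 6.97 and 5.36 from 13 reads in each list. The peak of Perm1, a regulator of mitochondrial genes in muscle, beside Plekhn1 had 6.12 and 4.26 from 17 reads. Myh7b, a slow myosin heavy chain gene, beside Trpc4ap had 5.01 and 3.58 from 34 and 35 reads, and Pgam2, the muscle phosphoglycerate mutase gene, beside Dbnl had 5.43 and 3.14 from 18 and 17.

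The 12 peaks with the best joint rank by fold covered several arrangements, with 6 head to head, 3 tandem, 1 with starts close together on the same strand and 2 of unknown strand. The first was at Fyco1, an adaptor that moves autophagosomes along microtubules, whose start lies 416 bp from the tail of the chemokine receptor gene Xcr1. The peak (chromosome 9, 123851543 to 123852452) had folds of 13.0 and 15.4 from 38 and 73 reads. Its reads differed by more than the median of 1 read between overlapping peaks, and the list 2 peak was also wider, 2039 bp against 910 bp.

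Pfdn6, a subunit of the chaperone prefoldin, and Wdr46, a nucleolar protein gene, came next, with spans 291 bp apart. Their peak (chromosome 17, 33940155 to 33940932) had folds of 13.0 and 12.7 from 38 and 40 reads and covered both gene starts printed above. Pmm2, the phosphomannomutase of N-glycosylation, and Tmem186, a factor for assembly of respiratory complex I, had 12 and 14.8 from 71 and 70 reads (chromosome 16, 8637144 to 8638062). Cyb561a3, a cytochrome of the b561 family, and Tmem138, a gene of the primary cilium, had 12.5 and 11.1 from 49 and 52 reads (chromosome 19, 10576932 to 10577418). In these 3 pairs the fold exceeded 11 in both lists, while the median member stood at 4.10 and 3.86.

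Etfdh, the flavoprotein dehydrogenase that feeds electrons of fatty acid breakdown to ubiquinone, starts 312 bp from 4930579G24Rik on the other strand, and the peak (chromosome 3, 79628239 to 79629225) had its midpoint 35 bp from the Etfdh start. Its folds were 11.8 and 11.0 from 70 and 71 reads. Hirip3, a chaperone of histones, and Ino80e, a subunit of the INO80 remodeller, had 12.5 and 9.20 from 41 and 43 reads. Ppme1, a methylesterase of protein phosphatase 2A, and C2cd3, a centriole gene, had 11.5 and 9.40 from 46 and 44. Haus3, of the augmin complex of the spindle, and the DNA polymerase gene Poln start 102 bp apart on the same strand and had 14.2 and 9.24 from 44 reads in each list. Gpalpp1 with Nufip1 (13.0 and 9.97) and Rrs1, a ribosome assembly gene, with Adhfe1 (10 and 15.0) completed the set, and their arrangement is not given here.

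All 12 textbook bidirectional pairs that were listed had a member peak, against 26.3% of all neighbouring end pairs and 70.9% of head-to-head pairs. The pairs were listed with earlier results of these data known. Their ends lie 44 to 276 bp apart, where head-to-head pairs with separate spans were marked in 77.6% to 83.1%. Prkdc with Mcm4, Col4a3 with Col4a4 and Cox4i1 with Emc8 are of unknown strand here and not among the head-to-head pairs counted. Their folds ran from 1.57 to 8.90 in list 1 and from 2.51 to 6.16 in list 2. The DNA damage kinase gene Atm and Npat, the activator of histone gene transcription, had 8.90 and 5.29 from 88 and 84 reads. Paics and Ppat, whose promoters are printed above, had 8.29 and 6.16 from 117 and 118 reads (chromosome 5, 76950950 to 76951892).

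Pairs that encode partners of 1 pathway were among them. Hadha and Hadhb, the alpha and beta subunits of the mitochondrial trifunctional protein of fatty acid oxidation, had 8.18 and 4.06 from 65 and 64 reads (chromosome 5, 30154648 to 30155621). Hspd1 and Hspe1, the mitochondrial chaperonin and its lid, had folds of 3.97 and 4.01 from 269 and 271 reads, the most of the 12 pairs. Col4a1 with Col4a2 and Col4a3 with Col4a4, the basement membrane collagens, had 6.0 and 2.79 from 29 and 30 reads, and 7.05 and 4.83 from 15 and 14 reads. Tap1 with Psmb9, genes of antigen presentation, had 6.5 and 3.5 from 22 and 21. These 3 peaks had the fewest reads of the 12 pairs.

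Among the others, the mitochondrial deacetylase gene Sirt3 with Psmd13 had 6.30 and 5.97 from 62 and 66 reads. The cytochrome c oxidase subunit gene Cox4i1 with Emc8 had 6.38 and 5.64 with 103 reads in list 2, and a predicted gene, Gm27021, ends there too. Surf1, an assembly factor of cytochrome c oxidase, with Surf2 had 2.88 and 5.76 from 48 and 45, and Prkdc with the replication helicase gene Mcm4 had 2.00 and 4.35 from 109 and 111. The lowest fold was at Mrps12, a mitochondrial ribosomal protein gene, with the mitochondrial seryl-tRNA synthetase gene Sars2, at 1.57 and 2.51 from 109 and 112 reads. List 1 gave the higher fold at some of these pairs and list 2 at others, so the order of pairs by fold depends on the list, while the recovered reads differed by at most 4 in each of the 12 pairs.

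**Figure D4:**
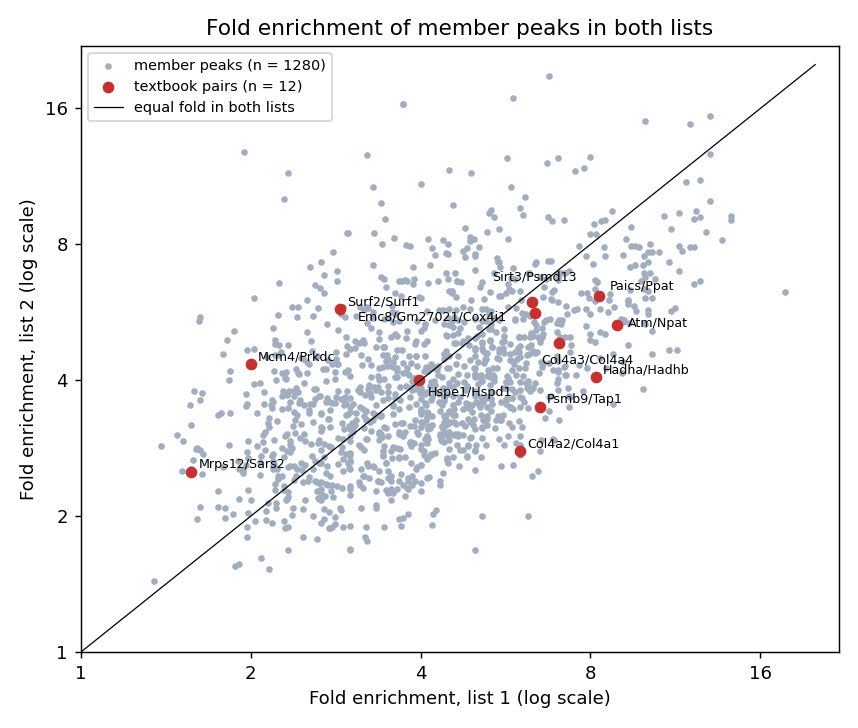
Fold enrichment of each member peak in list 1 (x axis) and in its strongest overlapping list 2 peak (y axis), both on log scales; red points are the textbook bidirectional pairs and the line marks equal values. The textbook pairs run from Mrps12/Sars2 at 1.57 and 2.51 to Atm/Npat at 8.90 and 5.29, and 57.0% of all members had the higher fold in list 1.

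Genes of mitochondria and of basic cell machinery were frequently marked in neighbouring pairs and, except for fatty acid oxidation, also frequent in such pairs. Of all 20665 genes, 6864 (33.2%) had an end in a neighbouring pair, and 2411 of those (35.1%; 34.0 to 36.3%) had a member peak. Among 89 genes of oxidative phosphorylation or the citrate (tricarboxylic acid) cycle, 56 were in such pairs and 35 of them marked (62.5%; 48.5 to 75.1%). Of 78 mitochondrial ribosome genes 50 were in such pairs, and 32 of the 50 were marked (64.0%; 49.2 to 77.1%). Fatty acid oxidation had 11 of 30 genes in pairs (36.7%), close to all genes, and 8 of the 11 marked (72.7%; 39.0 to 94.0%). The arrangement of these genes differed from that of all paired genes, of which 1966 of 6864 had a head-to-head neighbour. In the order above 23 of 56, 29 of 50 and 5 of 11 had one, but 10 of 39 in the cytosolic ribosome. The shares thus do not separate a gene class from its arrangement, and those within head-to-head genes are given below. Mrpl47, of the large mitochondrial ribosomal subunit, and Ndufb5, of respiratory complex I, start 302 bp apart and had 10.3 and 7.71 from 40 and 39 reads. Mrpl53 with Ccdc142 had 13.7 and 8.17 from 40 and 38, and Crat, the carnitine acetyltransferase gene, with Ptpa 8.18 and 8.42 from 105 and 107.

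Protein synthesis and turnover were marked in similar shares. Transfer RNA synthetase genes had a member in 12 of 19 (63.2%; 38.4 to 83.7%), RNA polymerase and splicing genes in 31 of 51 (60.8%; 46.1 to 74.2%), proteasome genes in 9 of 18 (50%; 26.0 to 74.0%) and chaperones in 17 of 34 (50%; 32.4 to 67.6%). Cytosolic ribosomal protein genes had 17 of 39 (43.6%; 27.8 to 60.4%), an interval that holds the share of all paired genes, as do those of the proteasome and the chaperones. Iars2, the mitochondrial isoleucyl-tRNA synthetase gene, and Bpnt1 start 9 bp apart and had folds of 7.84 and 5.76 from 46 and 45 reads, while Aars, of alanyl-tRNA synthetase, whose tail precedes the start of Exosc6, had 5.36 and 3.77 from 17. Polr3f, of RNA polymerase III, with Dzank1 had 9.41 and 7.13, and Polr2b, the second largest subunit of RNA polymerase II, with Noa1 7.63 and 7.95. Cct5, a subunit of the chaperonin for actin and tubulin, with Atpsckmt had 6.26 and 5.0 from 262 reads in list 1, and Dnajc14 with Tmem198b 8.0 and 8.44. Rpl4 with Zwilch had 8.60 and 5.68 and Rpl12 with Lrsam1 6.89 and 6.35.

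Repair, lysosomal and histone genes had intervals above the 35.1% of all paired genes. DNA repair and replication genes had 31 of 59 (52.5%; 39.1 to 65.7%), with Gins2, a subunit of the replication complex GINS, with Gse1 at 9.95 and 6.90 from 19 and 21 reads. Autophagy and lysosome genes had 16 of 28 (57.1%; 37.2 to 75.5%), led by the Sqstm1 tail described above and by Atg2b, a lipid transfer protein of autophagosomes, with Gskip at 6.85 and 9.03 from 88 and 86 reads. Replication-dependent histone genes had 33 of 52 (63.5%; 49.0 to 76.4%) from only 18 peaks, since the genes of a cluster share them. The histone interval can therefore not be set against the 35.1%. The best ranked were a peak at H2ac4 and H3c2 (5.0 and 7.61 from 19 and 23 reads) and one at H2ac13 and H3c10 (5.0 and 7.01 from 19 and 26). Histone genes are near-identical copies, so reads there may be shared between genes and the values are uncertain.

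Of 40 sarcomere genes 12 (30%) had an end in a neighbouring pair, close to the 33.2% of all genes. One member peak touched them, at 1 of the 12 genes (8.33%; 0.211 to 38.5%), an interval that holds the 35.1% of all paired genes. It lay at the pair of Myom1, the M-band protein myomesin, and Myl12a, a regulatory light chain gene, whose starts are 799 bp apart. Its midpoint was inside Myl12a, 167 bp from that start and 966 bp from the Myom1 start, and it had folds of 3.10 and 3.80 from 194 reads in list 1. Other muscle or myosin genes outside the list had members, named after their values were seen: Mylpf with Tbc1d10b, Tmod4 with Scnm1, Myl6 with Myl6b, and Myh7b at its tail. Cryab and Ldb3 were in pairs without a member, although Ldb3 had a shared peak at an end. Tnnc1, cardiac troponin C, starts 1486 bp from Nisch on the other strand and had none at that pair. Calcium handling genes had 3 of 7 (42.9%; 9.90 to 81.6%), among them S100a1, a calcium sensor of the cardiomyocyte, with S100a13 (6.20 and 6.93 from 30 and 32 reads) and the calmodulin kinase gene Camk2g with Ndst2 (4.91 and 6.02 from 53 and 54).

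Zinc finger genes with Zfp symbols had members at 32 of 80 paired genes (40.0%; 29.2 to 51.6%), close to the background. Zfp784 and Zfp580 start 73 bp apart and had folds of 12.2 and 9.10 from 72 reads in each list, and Zfp319 with Usb1 8.44 and 7.91. None of 19 paired olfactory receptor genes had a member (interval up to 17.6%), Olfr1033 and Olfr1034 among them. A list of silent clusters, chosen by symbol, had 2 of 24 (8.33%; 1.03 to 27.0%). Those were the vomeronasal receptor gene Vmn1r4, which shares its start region with Nt5c3 (6.33 and 4.65), and Krtcap2 with Trim46 (4.50 and 5.31), where Krtcap2 fell in the list by its symbol and is not a keratin gene.

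The lists were also read within head-to-head genes alone. Of 1966 genes with a head-to-head neighbour, 1399 (71.2%) had a member there. Among such genes the share was 20 of 23 (87.0%) in oxidative phosphorylation and the citrate cycle, 22 of 29 (75.9%) in the mitochondrial ribosome, 20 of 22 (90.9%) in RNA polymerase and splicing, 20 of 25 (80%) in DNA repair and replication, 8 of 10 (80%) in the cytosolic ribosome, 12 of 17 (70.6%) in chaperones and 18 of 30 (60%) in Zfp genes. All 8 autophagy and lysosome genes and all 6 proteasome genes in such pairs had one. The histones stood lower, with 14 of 28 (50%): H2ac1 with H2bc1, H2ac12 with H2bc12 and H2ac15 with H2bc15 start 281, 178 and 164 bp apart without a member and were named after their values were seen. These lists were chosen with results of these data known and hold few paired genes, so the shares are a description.

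**Figure D5:**
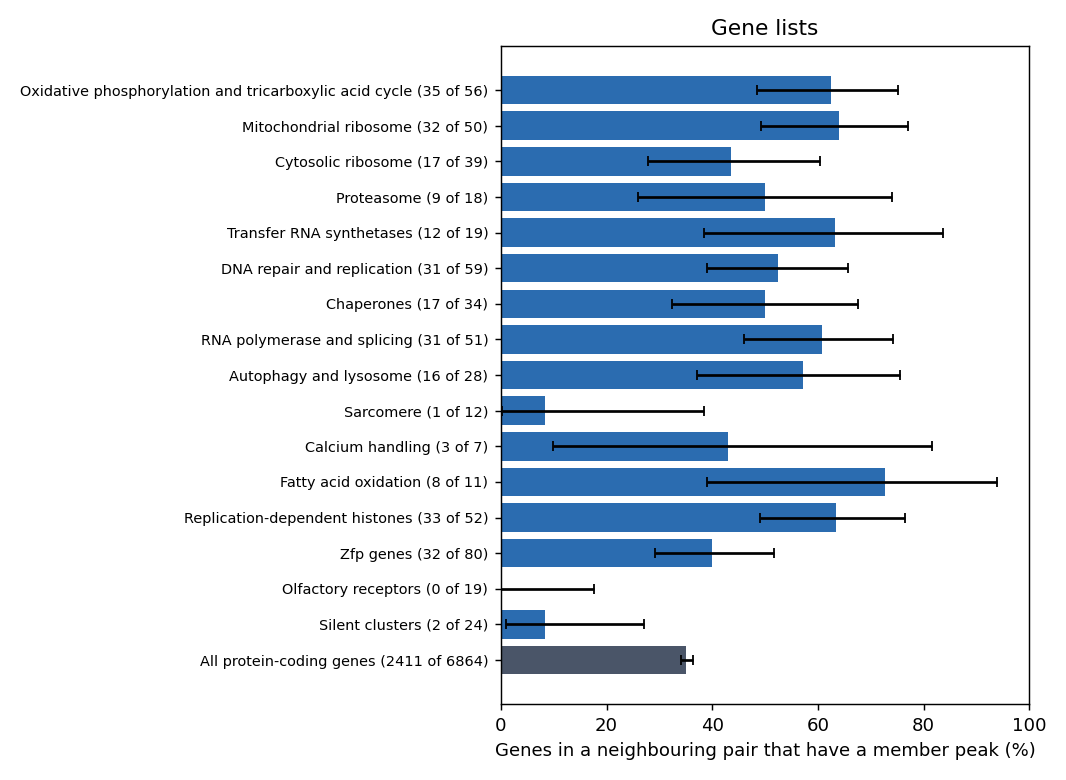
Share of genes with an end in a neighbouring pair that have a member peak (percent, x axis) for each gene list (blue; marked of paired genes in brackets) and for all protein-coding genes (dark grey); error bars are 95% exact binomial intervals. Fatty acid oxidation reaches 72.7%, all genes 35.1%, the sarcomere 8.33% and olfactory receptors 0%.

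The 289 head-to-head pairs without a member were of several kinds. In 128 (44.3%) no peak of either list lay within 1000 bp of either start. In 74 (25.6%) a peak of list 2 lay in reach of both starts without a shared list 1 peak, in 58 (20.1%) a shared peak was in reach of 1 start, in 12 a list 2 peak was in reach of 1 start, in 10 a shared peak was 2000 bp or wider, and in 7 the peak was in list 1 alone. Among tail-to-tail pairs without a member, 922 of 1003 (91.9%) had no peak of either list in reach. Head-to-head pairs with no member at a close distance included the mitochondrial ribosomal protein gene Mrps27 with Ptcd2 (89 bp), Ercc8 with Ndufaf2 (59 bp) and Kars with Terf2ip (5 bp), which were named after their values were seen.

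Promoters of marked head-to-head genes were rich in CpG. The ratio of observed to expected CpG had a median of 0.855 over the 1399 genes with a member and 0.698 over the other 567 head-to-head genes. It was 0.814 at single starts with a shared peak, 0.306 at single starts without one and 0.597 over 16457 promoters. The share of marked head-to-head pairs rose with the mean ratio of both promoters, from 18.3% (11 of 60) below 0.4 through 51.5% (67 of 130) and 69.7% (205 of 294) to 82.7% (420 of 508; 79.1 to 85.9%) at 0.8 or above. Single starts in the same classes were marked in 5.49%, 27.5%, 47.3% and 63.7% (2155 of 3381; 62.1 to 65.4%). In each class the head-to-head interval lay above that of single starts. A head-to-head pair has 2 starts at which a peak can form, and the part of that in the difference was not tested.

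The ETS motif was among the motifs more frequent at marked pairs than over all promoters. Its letters CCGGAAG on either strand were in 401 of 1399 promoters of marked head-to-head genes (28.7%), 45 of 179 of marked tandem downstream genes (25.1%), 16.8% of the other head-to-head promoters, 18.7% of marked single starts and 12.3% of all promoters, windows of the same 300 bases. The SP/KLF motif GGGCGG was in 66.3% of marked head-to-head, 71.1% of marked single and 47.3% of all promoters, and the NRF1 motif GCATGCG in 8.15%, 8.62% and 4.59%. The YY1 motif AAGATGG was in 10.1%, 7.4% and 6.4%, the NFY motif CCAATC in 24.2%, 22.3% and 18.8%, the CREB/ATF motif TGACGTC in 7.08%, 7.3% and 4.07%, and the E-box CACGTG in 11.9%, 11.5% and 7.97%. The TATA box TATAAA was in 4.86% of marked head-to-head, 6.57% of marked single and 13.5% of all promoters, and the ERR motif AAGGTCA in 2.93%, 2.76% and 4.0%. In the other head-to-head promoters SP/KLF was in 53.3%, NRF1 in 4.41%, YY1 in 6.7%, CREB/ATF in 3.17% and the E-box in 7.76%. NFY was more frequent there (26.1%) than at marked head-to-head promoters, as was the TATA box (8.47%), and ERR was near equal (3.0%). At marked tandem downstream genes YY1 was in 5.59%, below its share over all promoters. SP/KLF (65.9%), NRF1 (8.38%), NFY (21.2%), CREB/ATF (7.82%) and the E-box (8.38%) lay above theirs. Head-to-head windows overlap within a pair where the starts are close, so both promoters can hold the same match.

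Peaks on both sides of the limits of the rule are given as description. Nearest to 1000 bp from the farther end were the peaks at Mei1 and Ccdc134 (1000 bp; folds of 2.24 and 5.58) and at Tut1 and Eef1g (998 bp; 9.75 and 7.90), and outside those at Grin2c and Fdxr (just over 1000 bp; 5.87 and 3.34) and at LOC115488470 and Arf3 (1010 bp; 2.35 and 4.76). The widest members were at Ap3m1 and Adk (1960 bp; 9.15 and 5.38), Celsr3 and Slc26a6 (1938 bp; 5.56 and 3.59) and Rpl7 and Rdh10 (1904 bp; 3.43 and 2.79). Lpxn with Zfp91 (2015 bp; 2.87 and 2.90) and Smim7 with Tmem38a (2020 bp; 5.65 and 4.15) lay just outside, and 20 shared peaks at 2 genes were left out by width. Among the peaks in reach of 3 genes, the best ranked were at Naa80, Hyal3 and Hyal1 (9.45 and 7.93 from 18 and 20 reads), at Smim27, Topors and Ndufb6 (8.09 and 7.24 from 88 and 92) and at Senp3, Tnfsfm13 and Tnfsf13 (5.33 and 9.51 from 228 reads in list 1).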

How the data were processed

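H3R17me2a was profiled by ChIP-seq in 2 samples of 1 group. Reads were mapped to mm10, and the tools FastQC and Bowtie2 were used, per the submitters' processing notes. Peak caller, control library and filters: not given in the sources used here. The deposited files are 1 peak list a sample, with 10 unnamed columns (21497 and 38012 peaks). As the values show, the deposited fold is the ratio of ChIP to background at a summit after 1 was added to each. The deposited p-value and q-value columns hold −log10 values. The deposited score is the whole part of 10 times −log10 p. List 1 holds no −log10 p under 5.0 and list 2 none under 2.01, so their thresholds differ. Total depth is unknown.

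Reads at each summit were recovered as the whole number that gives both the fold and the Poisson tail p. This matched within 0.001 on the −log10 scale for 99.88% of peaks in each list, with list 2 reads multiplied by 0.61832, a factor found by scanning that share. With p-values exchanged between peaks 1.0% and 2.6% matched. The method was tested on simulated data.

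Genes and spans came from RefSeq (GRCm38.p6), and strand and promoters from its promoter table, matched by gene ID for 79.6% of genes. A gene end is either end of its span. An end pair is 2 ends of different genes at most 2000 bp apart. The list 2 value of a peak is that of its strongest overlapping peak, with an overlap of at least 1 bp. Named were the 12 members with the best joint rank by fold, 12 textbook pairs, up to 2 members of each of 16 gene lists (and up to 2 paired genes without one where fewer had a member), the peaks next to each limit, the 3 widest and the 3 in reach of the most genes. The members and lists were chosen with earlier results of these data known, and the splits by CpG, by number of peaks and by kinds of unmarked pairs after these files were seen. Work used Python 3.11.15, pandas 2.3.3, numpy 2.4.6 and scipy 1.17.1. Another textbook pair and 1 named list member are not reported here. Coordinates are 1-based.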

Additional observations from a re-analysis of the deposited data

How the results depend on the processing

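Of 59 values under 10 alternatives, 43 stayed within 1.5 times the reported count or within the interval of the reported value. Upper 50% of each list by fold: 383 members at 405 gene pairs, 8.15% of all end pairs, 20.7% of head-to-head pairs and a median fold of 6.47. A 2000 bp window gave 25% of all end pairs, 66.5% of head-to-head pairs and a median distance to the centre of 334 bp, and a 500 bp window gave a distance of 108 bp. Overlap of at least 50% of both peaks gave 23.0% and 63.3%, and a minimum −log10 p of 5 in each list gave 22.8% and 63.0%. With 1 list alone (without either sample in turn), members numbered 1302 to 1470, gene pairs 1315 to 1787, all end pairs held one in 26.7% to 36.3%, head-to-head pairs in 71.6% to 77.5%, and the distance to the centre was 174 to 224 bp, where the higher values are those of list 2. The fold in list 1 could not be given for list 2 alone and was 4.07 for list 1 alone. No paired analysis was possible because both samples belong to 1 group. The lowest member had 9 reads at its summit in either list, and marks below the callers' thresholds are not in these lists.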
